A study of Rattus norvegicus with 6 samples.

Results

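Mki67, Cdk1, Ccnd1 and Cdkn1a, 4 genes that drive or restrain the cell cycle, were followed in 3 kinds of cultured rat neural cells. They were chosen by their rat Ensembl identifiers (ENSRNOG00000028137, ENSRNOG00000000632, ENSRNOG00000020918 and ENSRNOG00000000521, in that order), and all 4 of 4 were found among the 26405 genes of the count table and passed the filter on low counts. The study profiled astrocytes (glial cells that support and feed neurons), neurons and oligodendrocyte precursor cells (OPCs, which can divide and give rise to myelin-forming cells), with 2 libraries of each. A different purchased cell product supplied each cell type. Astrocytes and OPCs went through 1 passage, with 8 days in culture before it and 6 days after it, while the neurons had 0 passages and 7 days. No treatment is named for any group, and the labels give no strain, age or genotype. Cell type thus cannot be told apart from product, nor, for neurons, from passage and time in culture.

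The cell cycle runs from G1, when a cell commits to divide, through DNA synthesis in S phase to G2 and mitosis. Ccnd1 encodes cyclin D1, which joins Cdk4 and Cdk6 in G1 and passes growth factor signals on to the retinoblastoma protein. Cdk1 is the kinase that drives entry into mitosis, and Mki67 encodes Ki-67, a protein of the mitotic chromosome surface that is widely used as a marker of dividing cells. Cdkn1a encodes p21, a brake on cyclin-dependent kinases and a classical target of p53, which can also help cyclin D and its kinases to assemble. In general, astrocytes and OPCs can divide in culture, whereas neurons have left the cycle for good. Whether cells divided in the cultures profiled here was not tested.

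Many genes of G2 and mitosis carry a short element called CHR (letters TTTGAA) near their start, often with CCAAT boxes (letters CCAAT), the site bound by the factor NF-Y. The 250 bases before the RefSeq start of Mki67 and Cdk1 (build GRCr8) are shown because these genes had similar profiles over the libraries, as described below. They run 5′ to 3′ in the direction of the gene, and capitals mark every match to TTTGAA or CCAAT on either strand. The Mki67 stretch is chr1:199952594-199952843, on the minus strand, and the Cdk1 stretch is chr20:19265043-19265292, on the plus strand.
Mki67: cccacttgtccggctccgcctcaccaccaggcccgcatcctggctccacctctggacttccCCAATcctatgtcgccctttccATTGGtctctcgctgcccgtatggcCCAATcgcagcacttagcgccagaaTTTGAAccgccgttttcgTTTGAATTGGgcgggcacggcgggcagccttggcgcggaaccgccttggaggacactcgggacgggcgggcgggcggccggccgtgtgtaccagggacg
Cdk1: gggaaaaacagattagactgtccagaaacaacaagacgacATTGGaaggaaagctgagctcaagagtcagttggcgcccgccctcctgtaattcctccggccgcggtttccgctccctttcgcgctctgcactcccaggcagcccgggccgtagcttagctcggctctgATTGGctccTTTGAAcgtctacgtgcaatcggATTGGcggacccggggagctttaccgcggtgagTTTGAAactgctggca
Distances are counted from the start that the promoter table uses. For all 3 genes with a promoter there, the RefSeq gene reaches farther upstream than that start, so another annotated start would give other distances and another stretch. Each stretch held 2 matches to TTTGAA, at 117 to 112 and 99 to 94 bases before the start of Mki67 and at 72 to 67 and 16 to 11 bases before that of Cdk1. There were 4 matches to CCAAT in the Mki67 stretch and 3 in the Cdk1 stretch, and 1 of those of Mki67 shared its last base with a TTTGAA. Of 33469 rat promoters of the same length, 16.2% held TTTGAA, 34.0% held CCAAT and 5.87% held both. At least 2 of each were held by 0.170%. That cut equals the number of TTTGAA matches seen in both stretches and was not planned, so this share is a description and no test. The same stretch of Cdkn1a held 0 matches to either, and neither TTTAAA, a variant of CHR, nor the E2F letters TTTCCCGC, TTTGGCGC and TTCCCGCC were found in any of these 3 promoters. Such absence was common, as 12.3% of all promoters held TTTAAA and 0.813%, 0.412% and 1.52% held the E2F letters, in that order. GC boxes (letters GGGCGG), present in 30.5% of promoters, numbered 4 in Mki67, 1 in Cdk1 and 0 in Cdkn1a. A p53 half-site, GAACATGTCT, lay 201 to 192 bases before the RefSeq start of Cdkn1a, and 6.64% of promoters held such a half-site. That search was added after the sequence had been read. Promoters of 3 of the 4 genes were matched. These matches describe letters only.

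Libraries held between 22265917 and 102861667 counts. Levels are given as CPM, counts scaled to library size with TMM factors, which equalise libraries over the bulk of genes. The lowest of the 24 counts behind them was 301, for Cdkn1a in neuron replicate 2. There the 95% Wilson interval ran from 4.65 to 5.83 CPM around a value of 5.21 CPM. Relative to the value, all other intervals were narrower. They cover counting error only, so replicate spread is the main limit. In these bulk samples, fewer cells of a type and less RNA per cell cannot be told apart. The markers of astrocytes, neurons, OPCs and other cells could not be checked, because 0 identifiers of the table were paired with a symbol. The share of dividing or of other cells in each culture was therefore not tested.

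**Figure D1:**
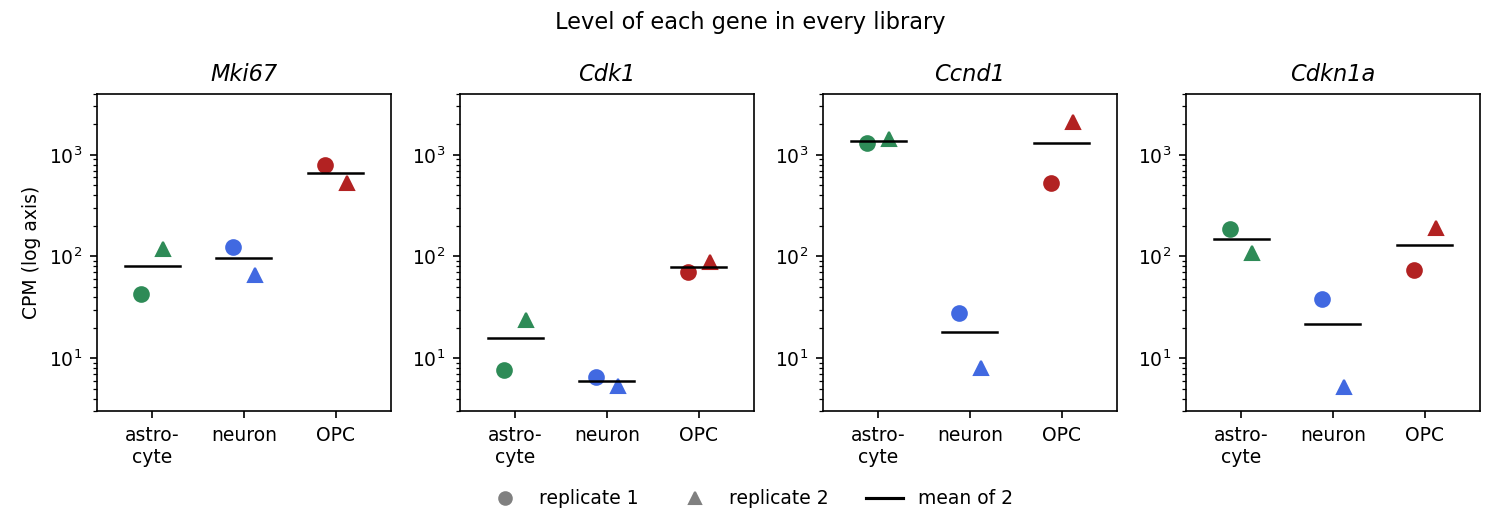
CPM of each gene (log axis) in the 6 libraries, with circles for replicate 1, triangles for replicate 2 and a bar at the mean of 2. Mki67 and Cdk1 are highest in both OPC libraries, and Ccnd1 and Cdkn1a are lowest in both neuron libraries.

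Mki67 was high in OPCs. It stood at 792 and 528 CPM in OPC replicates 1 and 2, at 125 and 66.5 CPM in the neuron replicates and at 43.1 and 119 CPM in the astrocyte replicates. Both OPC libraries lay above all 4 others, and the neuron and astrocyte libraries overlapped. The order of the means was OPCs (660 ± 187 CPM, SD, n = 2), neurons (95.8 ± 41.5) and astrocytes (81.0 ± 53.7). Mki67 was 8.15-fold higher in OPCs than in astrocytes (log2 difference 3.03 ± 0.62, SE; edgeR adjusted p = 0.0127). Neurons were 6.89-fold lower than OPCs (log2 difference -2.78 ± 0.61; edgeR adjusted p = 0.0317). Neurons and astrocytes, the neighbours at the low end, did not differ beyond their spread, with a log2 difference of 0.24 and a 95% interval from -1.11 to 1.60 (edgeR adjusted p = 0.782). That interval allows more than a 2-fold difference in either direction, and the sign turned when astrocyte replicate 1 (-0.21) or neuron replicate 1 (-0.28) was dropped. With astrocyte replicate 1 left out the OPC difference from astrocytes was 2.59 (adjusted p = 0.0532), with OPC replicate 1 left out 2.71 (0.0563) and with astrocyte replicate 2 left out 3.97 (0.0142). Between neurons and OPCs it was -2.40 (adjusted p = 0.0784) when neuron replicate 2 was dropped, -2.46 (0.13) or -3.06 (0.0976) when OPC replicate 1 or 2 was dropped, and -2.79 (0.0581) in a fit with a replicate block.

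Cdk1 was also highest in OPCs. It stood at 70.9 and 87.6 CPM in OPC replicates 1 and 2, at 7.68 and 24.0 CPM in the astrocyte replicates and at 6.56 and 5.38 CPM in the neuron replicates. No library of one cell type overlapped those of another, although neuron replicate 1 and astrocyte replicate 1 lay only 1.17-fold apart. The means were 79.2 ± 11.8 CPM in OPCs (SD, n = 2), 15.8 ± 11.5 in astrocytes and 5.97 ± 0.83 in neurons. OPCs stood 5.01-fold above astrocytes (log2 difference 2.32 ± 0.54, SE; edgeR adjusted p = 0.0203) and 13.3-fold above neurons, the latter with a log2 difference of -3.73 ± 0.58 for neurons against OPCs (edgeR adjusted p = 0.0123). For neurons against astrocytes the log2 difference was -1.41 ± 0.53 with a 95% interval from -2.65 to -0.15, which did not pass after adjustment over all genes (edgeR adjusted p = 0.0869). That value was -1.90 (adjusted p = 0.0204) or -0.34 (0.626) when astrocyte replicate 1 or 2 was dropped, and -1.41 (0.046) with no filter on low counts. The OPC difference from astrocytes was 2.47 (adjusted p = 0.0611) or 2.26 (0.0747) when OPC replicate 1 or 2 was dropped, and 3.40 (0.00627) when astrocyte replicate 2 was. Neurons against OPCs gave -3.87 (adjusted p = 0.0576) or -3.59 (0.072) when OPC replicate 1 or 2 was dropped.

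Ccnd1 set neurons apart from both other cell types. Its levels were 1291 and 1413 CPM in astrocyte replicates 1 and 2, 530 and 2104 CPM in the OPC replicates and 27.8 and 8.04 CPM in the neuron replicates. The neuron libraries lay at least 19.1-fold below every other library, while the OPC libraries lay on either side of both astrocyte libraries. Means were 1352 ± 86.7 CPM in astrocytes (SD, n = 2), 1317 ± 1113 in OPCs and 17.9 ± 14.0 in neurons. The cyclin D1 transcript was 75.4-fold lower in neurons than in astrocytes (log2 difference -6.24 ± 0.98, SE; edgeR adjusted p = 0.00383) and 73.4-fold lower than in OPCs (-6.20 ± 0.98; edgeR adjusted p = 0.0129). A log2 difference this far below 0 was found in 1.64% of all genes for neurons against astrocytes and in 0.143% for neurons against OPCs. Astrocytes and OPCs did not differ beyond their spread, at a log2 difference of -0.04 with a 95% interval from -1.88 to 1.80 (edgeR adjusted p = 0.981), and the sign of that value changed with the scaling. When neuron replicate 1 or 2 was dropped, the difference between neurons and astrocytes was -7.39 or -5.61, and that between neurons and OPCs -7.35 or -5.57. Dropping OPC replicate 1 gave -6.88 for neurons against OPCs, and dropping OPC replicate 2 gave -4.91 (adjusted p = 0.0585).

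Cdkn1a, the brake, had its lowest values in neurons, as Ccnd1 did. For both genes the means ran from astrocytes through OPCs to neurons, but astrocytes and OPCs did not differ beyond their spread. Cdkn1a stood at 186 and 109 CPM in astrocyte replicates 1 and 2, at 73.3 and 189 CPM in the OPC replicates and at 38.0 and 5.21 CPM in the neuron replicates. Both neuron libraries were below the 4 others, and the astrocyte and OPC libraries overlapped. The means were 148 ± 53.9 CPM in astrocytes (SD, n = 2), 131 ± 81.7 in OPCs and 21.6 ± 23.2 in neurons. None of the 3 comparisons passed the edgeR test after adjustment, and 2 of them had an unadjusted p under 0.05. The log2 difference was -2.77 ± 0.93 (SE) for neurons against astrocytes (95% interval -4.96 to -0.58, edgeR adjusted p = 0.0608) and -2.60 ± 0.92 for neurons against OPCs (95% interval -4.77 to -0.43, edgeR adjusted p = 0.115). For OPCs against astrocytes it was -0.17 with a 95% interval from -2.22 to 1.88 (edgeR adjusted p = 0.918). The neuron replicates lay 7.30-fold apart, and when neuron replicate 1 was dropped both neuron differences passed, at -4.82 (adjusted p = 0.00494) against astrocytes and -4.65 (0.013) against OPCs. DESeq2 also called both (adjusted p = 0.00741 and 0.0192), and limma-voom called the first (0.0317) but not the second (0.0758). Other settings gave smaller differences or higher p-values. When neuron replicate 2 was dropped the differences were -1.96 (adjusted p = 0.0758) and -1.79 (0.13), dropping astrocyte replicate 1 gave -2.24 (0.221) against astrocytes, and dropping OPC replicate 2 gave -1.78 (0.433) against OPCs. With no filter on low counts the adjusted p was 0.196 against astrocytes and 0.31 against OPCs.

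**Figure D2:**
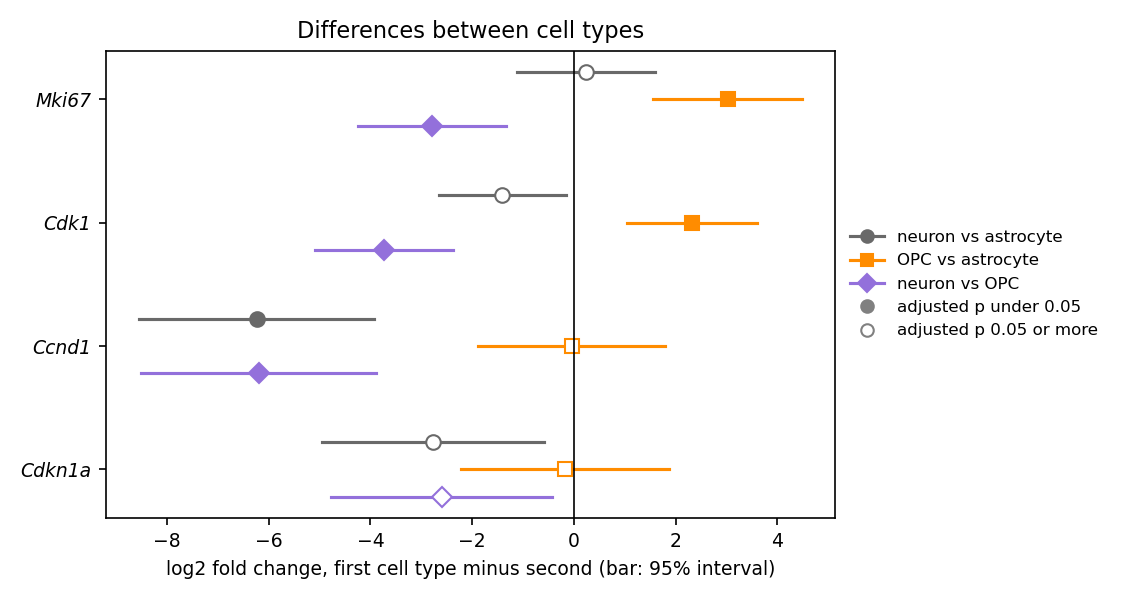
Log2 fold change of each gene in the 3 comparisons, with 95% intervals; filled symbols have an edgeR adjusted p under 0.05. Ccnd1 lies near -6 in both comparisons with neurons, and Mki67 and Cdk1 differ in both comparisons with OPCs.

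Of the 4 genes, 1 passed the test for neurons against astrocytes (Ccnd1), 2 for OPCs against astrocytes (Mki67 and Cdk1) and 3 for neurons against OPCs (all but Cdkn1a). Over all 18206 genes tested, the shares that passed were 30.4%, 25.5% and 12.4%. In the direction of the calls, the shares were 15.9% lower in neurons than in astrocytes, 10.6% higher in OPCs than in astrocytes and 4.69% lower in neurons than in OPCs. Libraries did not overlap for 3, 2 and 4 of the 4 genes, against 68.8%, 65.5% and 57.1% of all genes, so that a lack of overlap by itself was common. The median log2 difference of the 4 genes was -2.09, 1.14 and -3.26 in the same order, and that of all genes was -0.06, -0.04 and 0.05. The comparisons share libraries and are not independent of each other. Counts of genes called over the whole table moved with single libraries. They were 3306 or 3486 with astrocyte replicate 1 or 2 dropped for neurons against astrocytes (5532 with all libraries). For OPCs against astrocytes they were 2645 with astrocyte replicate 1 dropped and 2276 or 2182 with OPC replicate 1 or 2 dropped (4649). For neurons against OPCs they were 225 or 116 with OPC replicate 1 or 2 dropped (2260). Scaling by total counts alone moved the median of all genes to 0.40 for neurons and 0.39 for OPCs against astrocytes. It put 66.2% and 58.6% of calls on the higher side in these comparisons, against 47.7% and 41.6% with TMM.

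**Figure D3:**
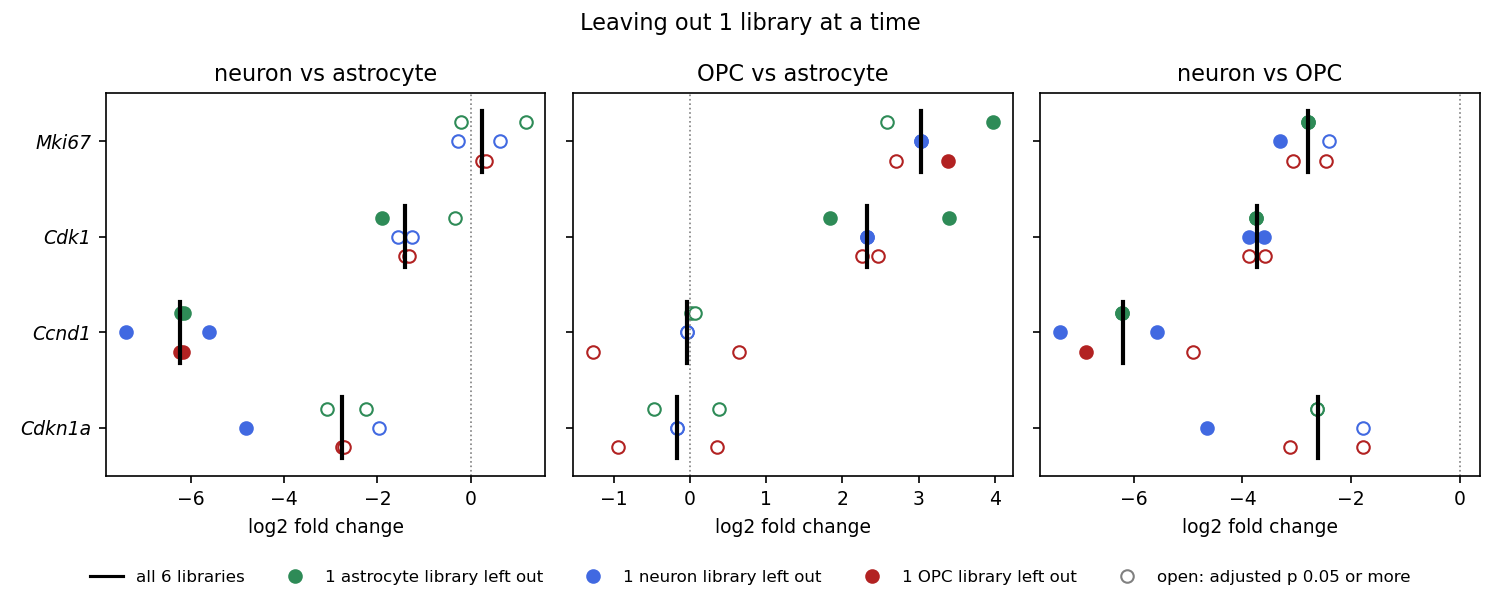
Log2 fold change of each gene when 1 library is left out (points, coloured by the cell type of that library; open where the edgeR adjusted p is 0.05 or more), beside the value from all 6 libraries (black bar); the dotted line is 0. Ccnd1 in neurons against astrocytes passed with each of the 6 libraries left out, from -7.39 to -5.61.

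Replicates of a cell type differed to unequal degrees from gene to gene. In astrocytes, Mki67 and Cdk1 were 2.76-fold and 3.12-fold higher in replicate 2, while Ccnd1 differed only 1.09-fold and Cdkn1a was 1.70-fold higher in replicate 1. As an absolute log2 difference, the astrocyte gaps of Mki67 and Cdk1 were 1.47 and 1.64, where the median gene had 0.42, and 6.34% and 4.41% of genes had a gap at least as wide. In OPCs the widest gap was that of Ccnd1, 3.97-fold higher in replicate 2 (2.36% of genes had one at least as wide), and Cdkn1a followed at 2.58-fold. Mki67 went the other way there and was 1.50-fold higher in OPC replicate 1, while Cdk1 was 1.24-fold higher in replicate 2. In neurons all 4 genes were higher in replicate 1, from 1.22-fold for Cdk1 through 1.88-fold for Mki67 and 3.45-fold for Ccnd1 to 7.30-fold for Cdkn1a, a gap reached by 3.39% of genes. The labels name nothing that sets these replicates apart, and the cause was not tested.

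Ratios of 2 genes counted in the same library do not depend on how libraries are scaled. Gene length cancels only between libraries, so that a ratio may be compared across cell types but not read as a ratio of transcripts. The log2 ratio of Ccnd1 to Cdkn1a was 2.80 and 3.69 in the astrocyte replicates, 2.85 and 3.48 in the OPC replicates and -0.45 and 0.63 in the neuron replicates. Both neuron libraries lay below all others, and astrocytes and OPCs overlapped (means 3.24 ± 0.63 and 3.17 ± 0.44, against 0.09 ± 0.76 in neurons, SD, n = 2). Ccnd1 counts were thus lower in neurons relative to Cdkn1a as well. For Mki67 to Cdk1 the log2 ratio was 2.49 and 2.31 in astrocytes, 3.48 and 2.59 in OPCs and 4.25 and 3.63 in neurons. Cell types did not overlap in this ratio, which was lowest in astrocytes (2.40 ± 0.13), intermediate in OPCs (3.04 ± 0.63) and highest in neurons (3.94 ± 0.44). The margins were narrow, however. Astrocyte replicate 1 (2.49) lay close to OPC replicate 2 (2.59), and OPC replicate 1 (3.48) close to neuron replicate 2 (3.63). The OPC replicates lay farther apart than either of these pairs. With 2 libraries against 2, an exact permutation test cannot go below p = 0.333, and none was run.

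**Figure D4:**
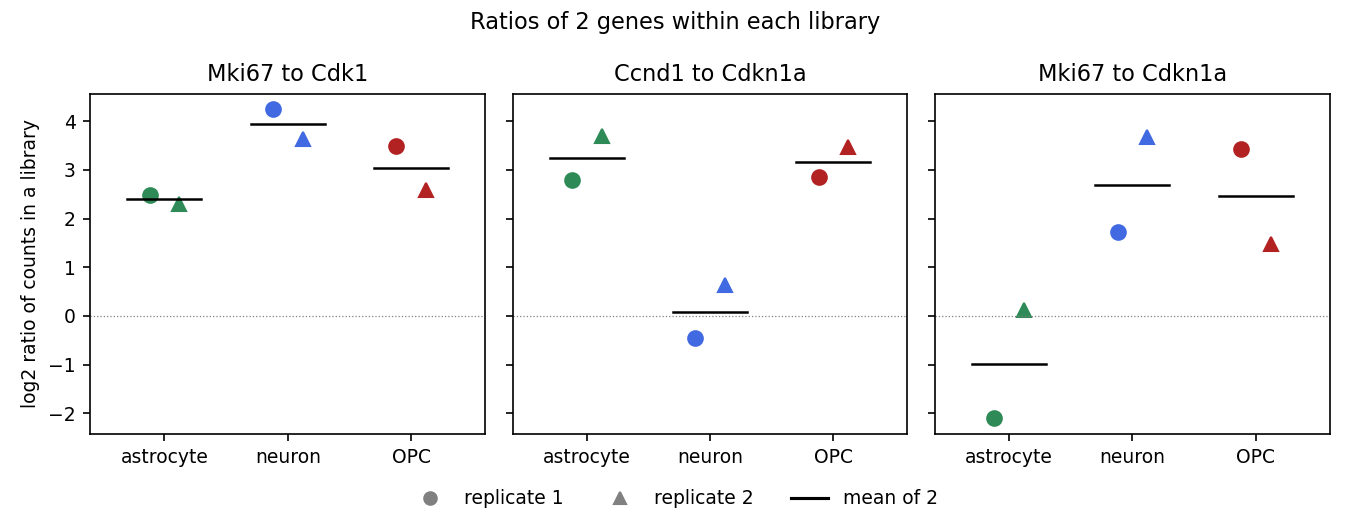
Log2 ratio of the counts of 2 genes within each library, with circles for replicate 1, triangles for replicate 2, a bar at the mean of 2 and a dotted line at 0. The ratio of Ccnd1 to Cdkn1a is lower in both neuron libraries than in all others, and that of Mki67 to Cdk1 is highest there.

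Likeness of profiles was measured as the root mean square difference of log2 CPM over the 6 libraries after each gene was centred on its own mean. Cdk1 lay 0.71 from Mki67 and ranked 274 among the 18205 other genes (Pearson r = 0.901, n = 6 libraries, which share their cell type in pairs). From Mki67, Cdkn1a lay 1.97 away (rank 12702) and Ccnd1 2.93 (rank 16291). From Ccnd1, Cdkn1a ranked 111 at a difference of 1.53 (r = 0.939), and Cdk1 ranked 823 and Mki67 5778. From Cdkn1a, in turn, Ccnd1, with its wider range over the libraries, ranked 3030 at the same 1.53, and Cdk1 was almost as close at 1.60 (rank 3999). These values are descriptions. By this measure the G1 cyclin Ccnd1 lay closer to the brake Cdkn1a than to Cdk1 or Mki67.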

How the data were processed

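Total RNA was prepared with a column kit and read on an Illumina HiSeq, per the labels' protocols. The authors deposited 1 table of raw gene counts (whole numbers, with unequal library totals). The aligner, the counter, the build and the use of strand were not given in the sources used here. The labels' description field named each column's sample, and 0 columns were left out. No 2 libraries were identical, and 0 genes shared the counts of any of the 4. Nothing in the labels says that replicates were separate cultures, and the p-values cover only the spread between these libraries, possibly a technical one.

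Tests used edgeR 4.0.16 in R 4.3.3. filterByExpr (minimum count 10, minimum total 15) kept 18206 of 26405 genes, and TMM factors ran from 0.794 to 1.21. A robust quasi-likelihood fit took in all 6 libraries with a mean for each cell type (3 residual degrees of freedom) and Benjamini-Hochberg adjustment over all genes at 0.05. Standard errors were the absolute log2 fold change divided by the root of F. Log2 CPM used a prior count of 2 and count ratios an offset of 0.5. Alternatives included DESeq2 1.42.0 and limma-voom (limma 3.58.1), each library left out and libraries thinned to 22265917 counts. The steps were tested on simulated data. For neurons against OPCs (17943 genes) edgeR called 42 of 66 genes at an 8-fold change, 11 of 67 at 4-fold and 0 of 67 at 2-fold, with 5 false calls. Only 200 genes were changed there, far fewer than the 2260 called in the data for this comparison. Adjustment over all genes is stricter with so few, so these shares do not carry over to the reported tests.

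The 4 genes were selected by identifier, and their names were given with the identifiers. A RefSeq gene table (GRCr8) paired 0 identifiers with a symbol, so lists of other cell cycle genes and of cell type markers were not analysed here. Named genes were the 4 members and, for each, the gene nearest in likeness. Promoters came from RefSeq (GRCr8) and were matched by symbol. The members and lists were chosen with earlier results of these data known.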

Additional observations from a re-analysis of the deposited data

How the results depend on the processing

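Ccnd1 in neurons against astrocytes kept its direction and its call in every alternative run, and so did Ccnd1 and Cdk1 in neurons against OPCs and Mki67 and Cdk1 in OPCs against astrocytes in every alternative other than leaving out a library. The lost calls came with 1 library left out, except that the replicate block gave -2.79 (adjusted p = 0.0581) for Mki67 in neurons against OPCs. The replicate numbers are in the labels, which do not say what a number marks. Deviations of same-numbered libraries correlated at 0.147 (astrocytes and neurons), 0.292 (astrocytes and OPCs) and 0.162 (neurons and OPCs). With the block, no call other than that of Mki67 changed. The value of Cdkn1a in OPCs against astrocytes, called in neither fit, changed sign from -0.17 to 0.080.

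Calls were gained for Cdk1 in neurons against astrocytes with no low-count filter (-1.41), for Cdkn1a in the same comparison with DESeq2 (-2.68) and limma-voom (-3.20), and for Cdkn1a in neurons against OPCs with DESeq2 (-2.55). DESeq2 called 4031 genes in all between neurons and OPCs (2260 by edgeR). For OPCs against astrocytes, values near 0 changed sign. Ccnd1 was 0.0039 with RLE and with DESeq2, 0.061 with upper-quartile scaling and 0.33 with total counts alone, and Cdkn1a was 0.23 with total counts alone. The cause of these changes was not tested.

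Ranges with each library dropped once treat the lone library of a cell type as varying like the other groups. For neurons against astrocytes, Mki67 ranged from -0.28 to 1.17, Cdk1 from -1.90 to -0.34, Ccnd1 from -7.39 to -5.61, Cdkn1a from -4.82 to -1.96 and genes called from 3306 to 5996. For OPCs against astrocytes, the ranges were 2.59 to 3.97 (Mki67), 1.84 to 3.40 (Cdk1), -1.27 to 0.64 (Ccnd1), -0.94 to 0.38 (Cdkn1a) and 2182 to 5831 genes. For neurons against OPCs they were -3.31 to -2.40, -3.88 to -3.59, -7.35 to -4.91, -4.65 to -1.78 and 116 to 2759 genes. By Pearson correlation in place of the root mean square difference, Cdk1 ranked 452 by likeness to Mki67 and Cdkn1a 325 by likeness to Ccnd1. Log2 count ratios of each cell type moved by less than 1 SD in thinned libraries.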

Other observations

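The log2 count ratio of Mki67, the marker of dividing cells, to Cdkn1a, the brake, was -2.11 and 0.12 in astrocyte replicates 1 and 2, 1.72 and 3.67 in the neuron replicates and 3.43 and 1.48 in the OPC replicates. Both astrocyte libraries lay below the other 4, and neurons (2.70 ± 1.38, SD, n = 2) and OPCs (2.46 ± 1.38) overlapped. In all 3 cell types the replicates differed by more in this ratio than in that of Ccnd1 to Cdkn1a.

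The genes whose profiles over the 6 libraries lay nearest to the members are known only by identifier. ENSRNOG00000012318 lay 0.12 from Mki67 (root mean square difference of centred log2 CPM) and stood at 118 and 93.8 CPM in the OPC replicates, 22.3 and 10.2 CPM in the neuron replicates and 8.13 and 20.3 CPM in the astrocyte replicates. ENSRNOG00000024650 lay 0.17 from Cdk1, ENSRNOG00000006664 lay 0.55 from Ccnd1 and ENSRNOG00000019555 lay 0.29 from Cdkn1a. The last stood at 62.2 and 48.4 CPM in astrocytes, 39.9 and 61.6 CPM in OPCs and 11.7 and 1.90 CPM in neurons. These genes were picked for their likeness over the same libraries, so that shared levels and replicate gaps follow from the choice.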
